A study of Mus musculus with 4 samples.

Results

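Translation initiation and elongation factors are the proteins that load ribosomes onto an mRNA, find its start codon and drive the ribosome along it. The genes described here were those of the deposited table whose symbols begin with Eif1 to Eif6 or with Eef1 or Eef2, without the Eif4ebp repressors. That rule uses names and no measured value, and it found 75 of the 17187 genes in the table. The 75 are 63 genes grouped as factor, kinase or methyltransferase genes and 12 grouped as pseudogenes or retrogene copies that carry a factor's name.

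The cells were sorted ILC2s (group 2 innate lymphoid cells, which answer alarm signals in barrier tissues with type 2 cytokines) from lungs of WT BALB/c mice. After isolation they spent 18 hours in culture with an isotype control antibody (2 libraries) or with anti-CD226, an antibody to a costimulatory receptor (2 libraries), and the labels name no other allele or agent. The stated dose of 5 µg/mL does not say which antibody it covers, the series' design text speaks of treated mice, and the table itself marks its control rows as PBS. The stated input was 10 pg of RNA per sample, a unit that may be misstated. Groups here follow the sample labels. The sources used here give neither the age of the mice nor whether replicate libraries were made from different mice, pools or cultures. The p-values therefore measure only how far these libraries spread, and that spread may be technical.

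In textbook outline, eIF2 brings the initiator tRNA to the small ribosomal subunit together with eIF1, eIF1A, eIF3 and eIF5, while eIF4F (the cap-binding eIF4E, the scaffold eIF4G and the helicase eIF4A) recruits the mRNA. Stress kinases phosphorylate eIF2 and so block its recycling by eIF2B, and mTORC1 frees eIF4E from the 4E-BP repressors. During elongation eEF1A delivers aminoacyl-tRNA, the eEF1B subunits recharge it with GTP, and eEF2 moves the ribosome on. In activated lymphocytes this machinery is in heavy use, because cytokine secretion needs protein synthesis.

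The values are normalised reads per gene, with an estimated depth between 12433721 and 17847341 reads per library, and errors are SDs over 2 libraries or SEs of the fit. ILC2 markers were present in all 4 libraries, with a summed value of 166230 to 183760 for the 10 listed genes, against 299 to 388 for the 4 of 6 T cell markers in the table. Macrophage markers moved with the groups: 10 of 16 were in the table, 8 of these had a higher mean in anti-CD226 libraries, none was at 0 in all libraries, and their sum was 111 and 52.9 in the isotype libraries and 315 and 1718 in the anti-CD226 libraries. Chil3, Itgax and Itgam were at 0 in isotype replicate 2 and Mpeg1 in both isotype libraries. Even in anti-CD226 replicate 2 the sum was 0.0125% of the signal. Mast cell and basophil markers went the other way, with 5 of 6 lower in anti-CD226 and sums of 217 and 206 against 120 and 180. Cpa3, Mcpt8 and Fcer1a were lower without overlap, while Gata2 was higher, also without overlap. The part of either cell type in the results that follow was not tested. In bulk libraries fewer cells of a type and less RNA per cell cannot be told apart. Anti-CD226 replicate 2 also stood apart from the other 3 libraries in many of the genes below, so values are given for each library.

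The translation factor genes together took 1.76% and 1.82% of the signal in the isotype libraries and 1.80% and 1.67% in the anti-CD226 libraries. The groups were therefore interleaved, with anti-CD226 replicate 2 lowest, and the difference of means was -0.055 percentage points (exact permutation test, two-sided, p = 0.667, where 0.33 is the smallest p that 2 libraries against 2 allow). Eef1a1 alone took 0.224%, 0.265%, 0.231% and 0.158% in the same order. Without it the share was 1.53% and 1.56% against 1.57% and 1.52%, a difference of -0.0054 percentage points. A few genes dominated: Eef1a1, Eif4g2, Eif5a, Eif4a1, Eif1 and Eef2 held 48.8% to 50.7% of the members' signal in each library.

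Per kb of transcript, which allows levels of different genes to be compared, Eef1a1 (chr9:78478449-78489151, minus strand, GRCm38) and Eif5a (chr11:69916714-69921958, minus strand) were close together at the top. Eef1a1 stood at 18739 ± 2284 under isotype and 15001 ± 4134 under anti-CD226 normalised reads per kb, and Eif5a, the factor that helps ribosomes through difficult stretches and is the protein known to carry hypusine, at 17495 ± 766 under isotype and 16905 ± 1693 under anti-CD226. The ranges of these genes overlapped, so their order is not resolved. Next came Eif1 (chr11:100319885-100322096, plus strand), the guardian of start codon choice, at 10070 ± 1060 under isotype and 9901 ± 873 under anti-CD226, Eif4a1 (chr11:69666936-69672423, minus strand), the cap-complex helicase, at 8099 ± 874 under isotype and 8207 ± 594 under anti-CD226, and Eif4g2, the eIF4G relative that lacks the eIF4E site, at 6743 ± 917 under isotype and 7470.5 ± 802 under anti-CD226. The translocase Eef2 followed at 4343 ± 184 under isotype and 4164 ± 266 under anti-CD226. Most of the 14 eIF3 subunit genes lay in a narrow band, from Eif3b at 2518 down to Eif3a at 1037 normalised reads per kb as means of 4 libraries, with Eif3f, Eif3j1 and Eif3j2 below it. The eIF2 kinases were among the lowest, with Eif2ak2 at 53.1.

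**Figure D1:**
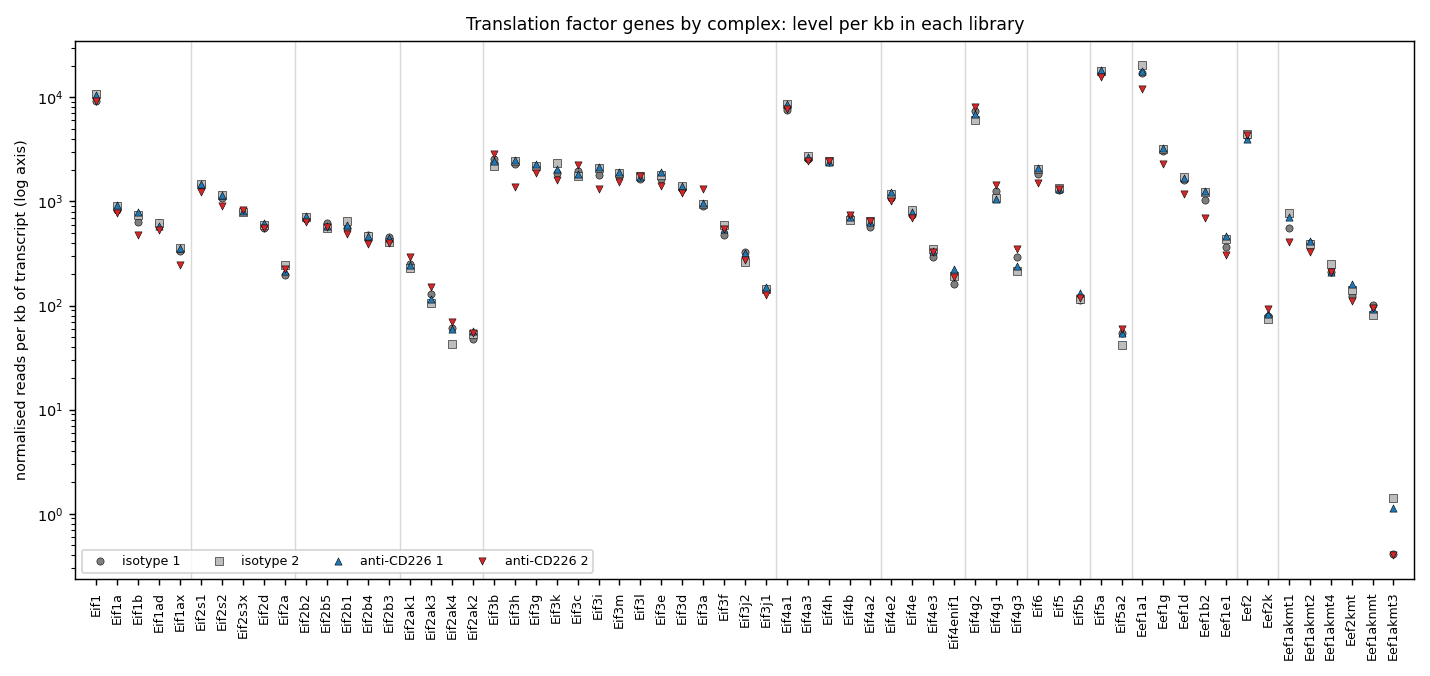
Level of each factor gene in normalised reads per kb of transcript (log axis), grouped by complex, with 1 point per library. Eef1a1 and Eif5a lead, most eIF3 subunits form a band, and Eef1akmt3 lies far below all others.

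Paralogs were far from equal. Eif4a1 exceeded Eif4a2 per kb 13.0-fold as a ratio of 4-library means, with a range over libraries of 12.1 to 13.5. Eif5a exceeded Eif5a2 328-fold (266 to 431), Eif1 exceeded Eif1b 15.1-fold (13.2 to 19.5) and Eif1a exceeded Eif1ax 2.65-fold (2.44 to 3.19). Among the scaffolds, Eif4g2 was 5.89 times Eif4g1 per kb (5.61 to 6.54), and Eif4g1 was 4.40 times Eif4g3 (4.06 to 5.05). The cap-binding gene Eif4e was below its relative Eif4e2 per kb, at a ratio of 0.677 (0.636 to 0.706), but that order rests on the transcript lengths chosen (4991 and 1807 bases), since in values not divided by length the ratio was 1.87 (1.76 to 1.95). Eif4e was above Eif4e3 per kb at 2.34 (2.14 to 2.49). Each of these ratios kept its side of 1 in all 4 libraries. Eef1a2 and Eif2s3y, the partners of Eef1a1 and Eif2s3x, were not among the genes that the rule found in the table.

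How well a read can be placed differs between true paralogs and processed copies, which the coding sequences make visible. The windows that follow hold 60 coding bases from GENCODE M21 transcripts on GRCm38, 5′ to 3′, chosen where each pseudogene differs most from its parent, with capitals marking bases that differ from the first sequence of each set. The sets are Eif4a1 (coding bases 475 to 534), Eif5a (256 to 315) and Eif1 (103 to 162), each followed by its pseudogene and its paralog. The pseudogene windows lie at chr1:60704406-60704465 for Eif4a-ps4, chr5:90132484-90132543 for Eif5al3-ps and chr14:40006316-40006375 for Eif1-ps1, all on the plus strand.
Eif4a1: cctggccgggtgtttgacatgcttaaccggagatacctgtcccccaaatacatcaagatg
Eif4a-ps4: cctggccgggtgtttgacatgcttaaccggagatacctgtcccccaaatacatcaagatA
Eif4a2: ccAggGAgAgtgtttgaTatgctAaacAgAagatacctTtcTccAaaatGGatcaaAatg
Eif5a: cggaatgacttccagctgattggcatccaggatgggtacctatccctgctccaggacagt
Eif5al3-ps: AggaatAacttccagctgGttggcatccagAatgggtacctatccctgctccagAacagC
Eif5a2: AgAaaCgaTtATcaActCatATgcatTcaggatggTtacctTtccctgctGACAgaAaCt
Eif1: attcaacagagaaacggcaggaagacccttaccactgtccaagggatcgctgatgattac
Eif1-ps1: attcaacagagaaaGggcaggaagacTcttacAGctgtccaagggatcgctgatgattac
Eif1b: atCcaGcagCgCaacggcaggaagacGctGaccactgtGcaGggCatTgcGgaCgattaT

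Eif4a-ps4 has 1 difference in its window and Eif4a2 has 14, so a short read separates the paralog but rarely the pseudogene. Over the aligned coding sequence Eif4a-ps4 matched Eif4a1 at 1217 of 1218 bases, with an identical run of 684 bases, whereas Eif4a2 matched at 78.6% with a longest run of 20. Eif5al3-ps matched Eif5a at 97.2% and Eif5a2 at 76.0%, and the windows differ at 6 and 19 bases. Eif1-ps1 matched Eif1 at 97.6% and Eif1b at 81.3%, with 4 and 13 differences in the windows. Of the pairs compared, Eif3j1 and Eif3j2 were the closest. Whether Eif3j2 (chr18:43475418-43477796, with a transcript of 2379 bases) is itself a retrogene copy was not tested, and it was counted with the eIF3 genes. Eif3j1 and Eif3j2 were identical at all 784 aligned coding bases. Values of the pseudogenes and of the separate eIF3j genes are therefore uncertain.

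Between the groups, no translation factor gene passed the test. Of the 75 genes, 71 reached a mean of 10 or more normalised reads and were tested, and 0 of the 71 had an adjusted p under 0.05 in limma (smallest 0.982), as had 0% of the 13010 genes tested. At an unadjusted p under 0.05 the count was also 0 of 71, against 308 genes (2.37%) in the whole table, of which 1.55% of all genes were higher in anti-CD226 and 0.815% lower. The smallest unadjusted p among the members was 0.072, for Eef2-ps2. Lower means in anti-CD226 were seen for 43 members and higher means for 28, so 60.6% were lower against 48.9% of all genes. The median log2 difference, on the log2(value + 1) scale, was -0.04 over the 71 members and 0.01 over all genes. Differences quoted for single genes hereafter are on the same scale, anti-CD226 minus isotype, with positive values for higher levels in anti-CD226. In 9 members (12.7%) the groups did not overlap, 5 higher and 4 lower in anti-CD226, against 26.8% of all genes (13.8% higher and 13.0% lower).

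The intervals bound how large a difference these libraries leave possible. Among the 62 tested members not grouped with the pseudogenes and copies, every 95% interval lay within a 2-fold difference either way. Of these intervals 42 lay within 1.5-fold, and none left out 0. Their fitted differences ran from -0.34 to 0.31 with SEs of 0.15 to 0.29.

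**Figure D2:**
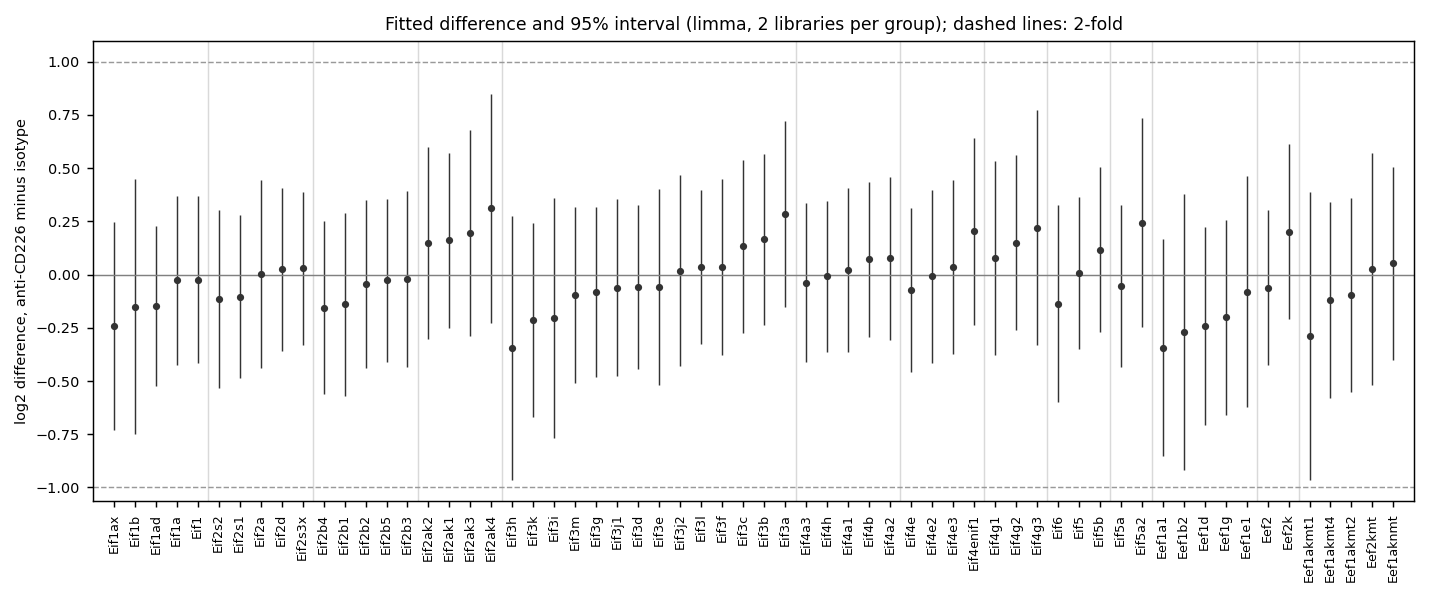
Fitted log2 difference (anti-CD226 minus isotype, points) and 95% interval (bars, limma, 2 libraries per group) of the 62 tested factor genes, grouped by complex. All intervals include 0 and all lie between the dashed 2-fold lines.

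The 2 anti-CD226 libraries did not move together. Against the isotype mean, replicate 1 was higher in 56 of 71 members with a median of 0.05, and replicate 2 was lower in 44 of 71 with a median of -0.12. Leaving out replicate 2 gave 15 members with a lower mean instead of 43 and turned the median to 0.05. Leaving out replicate 1, which rests on a lone anti-CD226 library assumed to vary like the isotype libraries, brought 8 of 71 members (11.3%) and 1633 of 13010 genes (12.6%) past an adjusted p of 0.05 in limma. The 8 were Eif3h at -0.77, Eef1b2 at -0.71, Eef1akmt1 at -0.69, Eef1a1 at -0.63, Eif3i at -0.55, Eif1ax at -0.52 and Eef1d at -0.49, all lower, and Eif3a, higher at 0.50. They describe anti-CD226 replicate 2 against the isotype libraries and not the treatment.

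**Figure D3:**
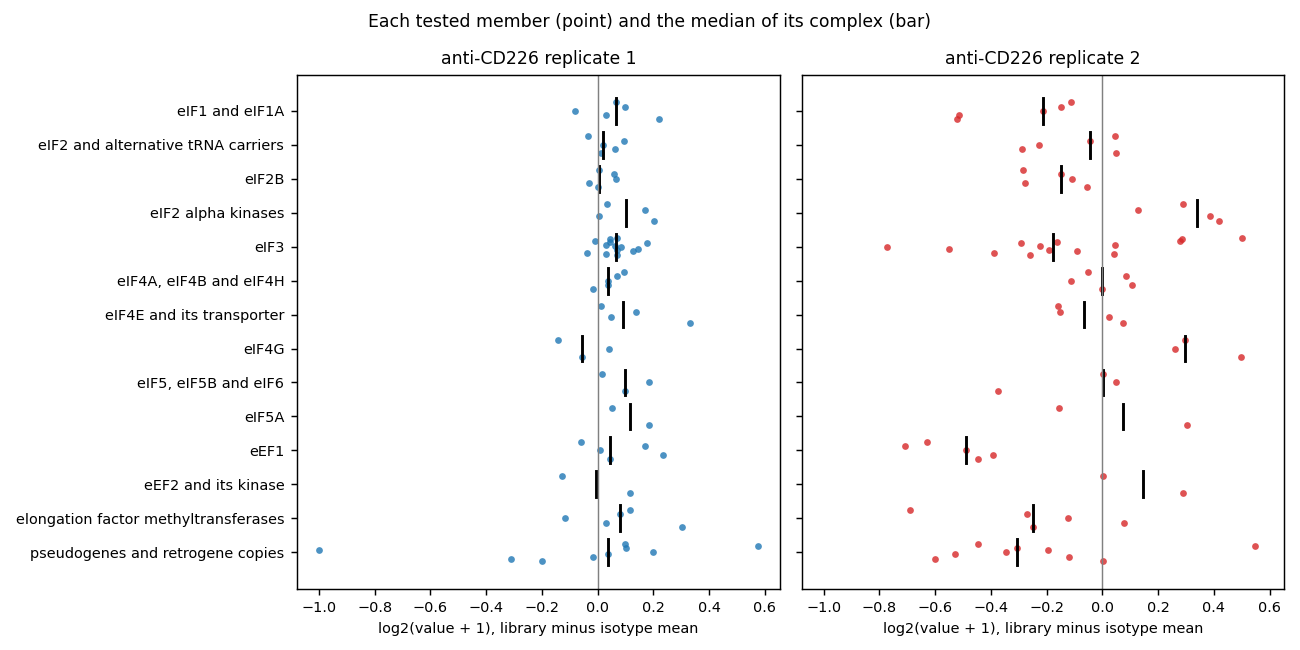
Difference of each anti-CD226 library from the isotype mean on the log2(value + 1) scale for the 71 tested members (points) and the median of each complex (bars). Replicate 1 stays near 0, while in replicate 2 the eEF1 median is -0.49 and the eIF2 kinase median 0.34.

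Among the factors that open the small subunit for scanning, all 5 genes of the eIF1 and eIF1A group had lower means in anti-CD226, with a median of -0.15, and none passed the test. Eif1 had 12322 and 14304 in the isotype libraries and 13905 and 12273 in the anti-CD226 libraries. Anti-CD226 replicate 2 was close to isotype replicate 1, the groups overlapped, and the fitted difference was -0.02 (SE 0.17, 95% interval -0.41 to 0.37). Eif1a, which stabilises the scanning complex, had 2357 and 2585 under isotype and 2639 and 2225 under anti-CD226 with a difference of -0.03 (SE 0.17). The X-linked Eif1ax, whose coding sequence is 85.7% identical to that of Eif1a, had 1744 and 1853 under isotype and 1837 and 1257.5 under anti-CD226. Its first 3 values lay together and only anti-CD226 replicate 2 was low, at a difference of -0.24 (SE 0.21, 95% interval -0.73 to 0.25). Eif1ad, a nuclear protein with an eIF1A-like domain, had 1581 and 1572 under isotype and 1488 and 1360.5 under anti-CD226, so the groups did not overlap, by -0.15 (SE 0.16). Without anti-CD226 replicate 2 the group's median was 0.07, and removing the length trend left -0.05.

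For the initiator tRNA carriers, 3 of 5 genes had higher and 2 lower means, with overlapping groups in each. Eif2s1, the alpha subunit of eIF2 and the target of the stress kinases, had 4885.5 and 5037 in the isotype libraries and 5032 and 4238 in the anti-CD226 libraries. Eif2s2, the beta subunit, had 2752 and 2920 under isotype and 2959 and 2318 under anti-CD226. Both were lowest in anti-CD226 replicate 2 and overlapped between groups, at -0.10 (SE 0.17, 95% interval -0.49 to 0.28) and -0.11 (SE 0.18, 95% interval -0.53 to 0.30). Eif2s3x, the gamma subunit that binds GTP and the tRNA, had 2967 and 2878 under isotype and 2942.5 and 3022 under anti-CD226, close together in all 4 libraries, with a difference of 0.03 (SE 0.16). Eif2a and Eif2d, carriers that can act without eIF2, differed by 0.005 and 0.02. The median of the 5 genes was 0.005, and it was negative under each of the 4 other scalings, between -0.003 and -0.019.

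For eIF2B, the exchange factor that recharges eIF2, all 5 subunits had lower means, with a median of -0.04. The catalytic subunit Eif2b5 had 1580 and 1412 in the isotype libraries and 1495 and 1437 in the anti-CD226 libraries. Both anti-CD226 values lay between the isotype values, and the difference was -0.03 (SE 0.17, 95% interval -0.41 to 0.36). Eif2b4 had 958 and 949 under isotype and 932 and 786 under anti-CD226. Here the groups did not overlap, although anti-CD226 replicate 1 was just below isotype replicate 2, and the difference was -0.16 (SE 0.18, 95% interval -0.56 to 0.25). Eif2b1, a regulatory subunit, had 1118 and 1292 under isotype and 1207 and 986 under anti-CD226 and a difference of -0.14 (SE 0.19), with replicate 2 again lowest. Without anti-CD226 replicate 1 the median of the 5 was -0.15, and without replicate 2 it was 0.006.

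The 4 eIF2 alpha kinases, each tied to a different stress, all had higher means in anti-CD226, with a median of 0.18, and none passed the test. Eif2ak4 (GCN2, which senses uncharged tRNA) had 320.5 and 223 in the isotype libraries and 308 and 358 in the anti-CD226 libraries. Isotype replicate 2 was the low value and the groups overlapped, at 0.31 (SE 0.23, 95% interval -0.23 to 0.85). Eif2ak3 (PERK, the sensor of unfolded protein in the endoplasmic reticulum) had 581 and 474 under isotype and 526 and 686 under anti-CD226. Eif2ak1 (HRI, the heme-regulated kinase) had 1077 and 992 under isotype and 1057 and 1264 under anti-CD226. In both, anti-CD226 replicate 1 sat between the isotype libraries and only replicate 2 was high, at 0.19 (SE 0.21, 95% interval -0.29 to 0.68) and 0.16 (SE 0.18, 95% interval -0.25 to 0.57). Eif2ak2 (PKR, activated by double-stranded RNA) had 206 and 229 under isotype and 244 and 237 under anti-CD226. Its groups did not overlap, but the gap from 229 to 237 was smaller than the isotype spread, and the difference was 0.15 (SE 0.19, 95% interval -0.30 to 0.60). Without replicate 1 the median of the kinases was 0.34, and with each library's length trend removed it was 0.07.

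The eIF3 complex, the largest initiation factor and the platform on the small subunit, had genes on both sides of 0. Of its 14 genes 6 had higher and 8 lower means, with a median of -0.06 that became 0.04 with the length trend removed and 0.07 without anti-CD226 replicate 2. Eif3a, the central scaffold subunit, had 4679 and 4841 in the isotype libraries and 4993.5 and 6734 in the anti-CD226 libraries. The first 3 libraries were within a narrow range and anti-CD226 replicate 2 was high, the groups did not overlap, and the difference was 0.28 (SE 0.19, 95% interval -0.15 to 0.72). Eif3b, the partner that forms the core with it, had 7503 and 6476 under isotype and 7194 and 8489 under anti-CD226. Eif3c, another core subunit, had 6677 and 5883.5 under isotype and 6220 and 7604 under anti-CD226. Both were highest in anti-CD226 replicate 2 and second highest in isotype replicate 1, at 0.16 (SE 0.17) and 0.13 (SE 0.18).

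Eif3h, another eIF3 subunit, went the other way. It had 2931 and 3149 under isotype and 3216 and 1780 under anti-CD226, so anti-CD226 replicate 1 was the highest and replicate 2 by far the lowest library, and the difference was -0.34 (SE 0.27, 95% interval -0.96 to 0.27). The ratio of Eif3c to Eif3h per kb was 0.872 and 0.715 in the isotype libraries and 0.740 and 1.64 in the anti-CD226 libraries, a ratio chosen after its values were seen. Grouped after the values were seen, Eif3a, Eif3b and Eif3c had a median of 0.28 in anti-CD226 replicate 2 against the isotype mean, and the other 11 genes a median of -0.23. In replicate 1 the same medians were 0.05 and 0.07. Between the isotype libraries the same genes differed too, with medians for replicate 2 minus replicate 1 of -0.18 and 0.10.

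**Figure D4:**
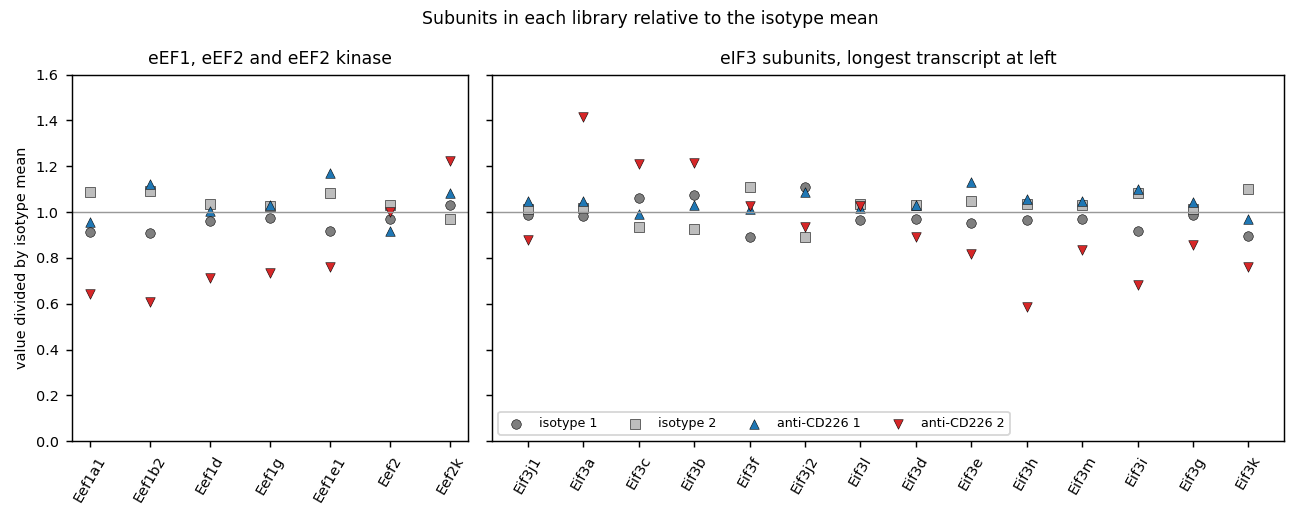
Value in each library divided by the isotype mean, for the eEF1, eEF2 and eEF2 kinase genes (left) and the 14 eIF3 genes ordered by transcript length (right). Anti-CD226 replicate 2 is low for the eEF1 genes and for Eif3h, and high for Eif3a, Eif3b and Eif3c, while the other 3 libraries lie near 1.

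The helicase and its helpers differed little between groups. Eif4a1 had 13271 and 15464 in the isotype libraries and 15304 and 13814 in the anti-CD226 libraries. Its 2 lowest values were isotype replicate 1 and anti-CD226 replicate 2, with overlapping groups and a difference of 0.02 (SE 0.17, 95% interval -0.37 to 0.41). Eif4a2 had 1266.5 and 1421 under isotype and 1408.5 and 1423 under anti-CD226, with isotype replicate 1 alone below the rest, at 0.08 (SE 0.17). Eif4b, a cofactor of the helicase, had 2726 and 2581 under isotype and 2719 and 2855 under anti-CD226 at 0.07 (SE 0.16). Eif4h, a related cofactor, had 5675.5 and 5792 under isotype and 5671 and 5735 under anti-CD226. Eif4h was the most even of these genes, at -0.01 (SE 0.15, 95% interval -0.36 to 0.35). The median of the 5 genes of the group, which include the exon junction helicase Eif4a3, was 0.02, and -0.002 when the libraries were scaled to equal upper quartiles.

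Eif4e, the cap-binding protein that 4E-BPs hold back, had 3662 and 4130.5 in the isotype libraries and 3926 and 3483 in the anti-CD226 libraries. The anti-CD226 values straddled isotype replicate 1, and the difference was -0.07 (SE 0.17, 95% interval -0.46 to 0.31). Eif4e2, a cap-binding relative linked to translational repression, had 1950 and 2119 under isotype and 2234 and 1827 under anti-CD226 at -0.01 (SE 0.18). Eif4enif1, which carries eIF4E into the nucleus, had 598 and 709 under isotype and 819.5 and 686 under anti-CD226, with isotype replicate 1 low and anti-CD226 replicate 1 high, at 0.20 (SE 0.19, 95% interval -0.24 to 0.64). The 4 genes of this group, Eif4e3 included, split 2 to 2 with a median of 0.01. That median turned negative at equal upper quartiles (-0.010), with TMM scaling (-0.003) and with quantile normalization (-0.009). It was also negative without isotype replicate 1 (-0.076) and without anti-CD226 replicate 1 (-0.065).

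All 3 eIF4G scaffold genes had higher means in anti-CD226, with a median of 0.15 and overlapping groups in each. Eif4g1, the main cap scaffold, had 6851.5 and 5894 in the isotype libraries and 5750 and 7800 in the anti-CD226 libraries. The anti-CD226 group held both the lowest and the highest library, and the difference was 0.08 (SE 0.20, 95% interval -0.38 to 0.53). Eif4g2 had 26224 and 21624 under isotype and 24492 and 28519 under anti-CD226. Eif4g3, a second cap scaffold, had 1780 and 1317 under isotype and 1471 and 2165 under anti-CD226. The last 2 genes differed by 0.15 (SE 0.18, 95% interval -0.26 to 0.56) and 0.22 (SE 0.24, 95% interval -0.33 to 0.77). In all 3 genes isotype replicate 1 and anti-CD226 replicate 2 were the 2 highest libraries. Without anti-CD226 replicate 2 the median was -0.06, so the direction rests on that library. Removing the length trend left a median of 0.055.

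At subunit joining, Eif5, the activator of GTP hydrolysis by eIF2, had 5168 and 5405 in the isotype libraries and 5340 and 5294 in the anti-CD226 libraries. The values were nearly the same in all 4 libraries, at 0.01 (SE 0.15, 95% interval -0.35 to 0.37). Eif5b, the GTPase that joins the subunits, had 888 and 907 under isotype and 1019 and 928 under anti-CD226. Its groups did not overlap, anti-CD226 being higher, by 0.12 (SE 0.17, 95% interval -0.27 to 0.50). Eif6, which keeps the large subunit from joining too early, had 2759 and 3074 under isotype and 3119 and 2247 under anti-CD226, with anti-CD226 replicate 1 highest and replicate 2 lowest, at -0.14 (SE 0.20, 95% interval -0.60 to 0.32). Their median of 0.009 became -0.076 with the length trend removed and was 0.001 to -0.015 under the other scalings.

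Eif5a had 24362 and 25919 in the isotype libraries and 26014 and 22572 in the anti-CD226 libraries. The anti-CD226 libraries were the highest and the lowest, and the difference was -0.05 (SE 0.16, 95% interval -0.43 to 0.33). Its scarce paralog Eif5a2 had 274 and 210.2 under isotype and 273 and 296 under anti-CD226, with isotype replicate 2 low and the other 3 libraries within a narrow range, at 0.24 (SE 0.21, 95% interval -0.25 to 0.73).

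In elongation, all 5 eEF1 genes had lower means in anti-CD226, with a median of -0.24, and none passed the test. Eef1a1, the tRNA carrier, had 30721 and 36515 in the isotype libraries and 32156 and 21668 in the anti-CD226 libraries. Anti-CD226 replicate 1 lay between the isotype libraries and replicate 2 was the lowest of the 4, so the groups overlapped, at -0.34 (SE 0.22, 95% interval -0.85 to 0.17). Eef1d, the delta subunit of the exchange complex, had 3715 and 4002 under isotype and 3881.5 and 2747 under anti-CD226. Eef1g, its gamma subunit, had 5696 and 6006 under isotype and 6035 and 4292 under anti-CD226. In both, anti-CD226 replicate 2 alone was below the rest, at -0.24 (SE 0.20, 95% interval -0.71 to 0.23) and -0.20 (SE 0.20, 95% interval -0.66 to 0.26).

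Outside the rule that chose named genes, and named after their values were seen, the exchange subunit Eef1b2 had 2003.5 and 2402 under isotype and 2469 and 1341 under anti-CD226 at -0.27 (SE 0.28). Eef1e1, a subunit of the multisynthetase complex of tRNA synthetases, had 939 and 1106 under isotype and 1197 and 776 under anti-CD226 at -0.08 (SE 0.23). For the 5 genes the median against the isotype mean was 0.05 in replicate 1 and -0.49 in replicate 2. Without replicate 2 the median difference was 0.05, so the lower eEF1 median rests on that library. Eef1a1 stayed lower without it, at -0.06, and the other 4 genes were then higher.

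Eef2 did not follow eEF1. It had 13016 and 13818 in the isotype libraries and 12280 and 13443 in the anti-CD226 libraries, with anti-CD226 replicate 1 the lowest library and replicate 2 inside the isotype range, at -0.06 (SE 0.16, 95% interval -0.43 to 0.30). Eef1a1 per kb was 4.06 and 4.55 times Eef2 in the isotype libraries and 4.51 and 2.78 times in the anti-CD226 libraries, a ratio chosen after its values were seen. Eef2k, the calcium-dependent kinase that inhibits eEF2, had 518 and 488 under isotype and 545 and 614 under anti-CD226. Both anti-CD226 values were above both isotype values, at 0.20 (SE 0.18, 95% interval -0.21 to 0.61). The median of the 2 genes was 0.07, but -0.035 with the length trend removed and -0.006 without anti-CD226 replicate 2.

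Of the 6 methyltransferase genes that modify elongation factors, 5 were tested, 2 higher and 3 lower, with a median of -0.10 that became 0.03 once the length trend was removed and 0.08 without anti-CD226 replicate 2. Eef1akmt1, a lysine methyltransferase of eEF1A, had 487 and 679 under isotype and 623 and 356 under anti-CD226. The isotype libraries themselves differed widely, anti-CD226 replicate 2 was lowest, and the difference was -0.29 (SE 0.29, 95% interval -0.97 to 0.39). Eef1akmt4 had 236 and 282 under isotype and 238 and 237 under anti-CD226 at -0.12 (SE 0.20). Eef1akmt2 had 441 and 437 under isotype and 463 and 364 under anti-CD226 at -0.10 (SE 0.20). Eef1akmt3 had a mean under 10 and was not tested. Its values of 1.11, 3.86, 3.09 and 1.10 correspond to 1, 5, 3 and 1 reads.

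Of the 12 pseudogenes and copies, 9 were tested, 1 with a higher and 8 with a lower mean and a median of -0.10, which was 0.07 with the length trend removed and 0.04 without anti-CD226 replicate 2. Eef2-ps2 had 48.6 and 51.8 under isotype and 75.2 and 73.9 under anti-CD226. The groups did not overlap, and the difference was 0.56 (SE 0.27, 95% interval -0.06 to 1.19), with an adjusted p of 0.982 in limma. It stood at 0.374% and 0.375% of Eef2 in the isotype libraries and 0.612% and 0.550% in the anti-CD226 libraries, although Eef2 itself was not higher there. Eif4a3l2, a copy of Eif4a3 with 96.8% identity, had 72.8 and 82.8 under isotype and 62.4 and 50.9 under anti-CD226, also without overlap, at -0.46 (SE 0.28, 95% interval -1.09 to 0.18). Eif4a-ps4 had 723 and 646 under isotype and 676 and 629 under anti-CD226, which is 4.18% to 5.45% of Eif4a1. Eef1a1-ps1 had 349 and 398 under isotype and 399 and 273 under anti-CD226, 1.09% to 1.26% of Eef1a1. Eif3s6-ps3, Eif3s6-ps4 and Eif4a3l1 had a mean under 10 and were not tested. Values that were not whole numbers of reads occurred in 10 of the 12 copies and in 9 of 24 other members low enough to check.

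Transcript length went with the layout of anti-CD226 replicate 2. Across the 62 members, Spearman's rho between length and the difference from the isotype mean was 0.66 in replicate 2 and -0.12 in replicate 1, and it was -0.55 for isotype replicate 2 minus replicate 1. These are descriptions across genes of the same libraries, and the first 2 share the isotype mean. Of the 12 members with transcripts of up to 1500 bases, 12 were below the isotype mean in replicate 2, with a median of -0.32, and 10 were above it in replicate 1. Of the 22 members longer than 3000 bases, 18 were above it in replicate 2, with a median of 0.12. Within eIF3 the long Eif3a, Eif3b and Eif3c were high in replicate 2, but the longest, Eif3j1 (5413 bases), was low at -0.19. Over the 14 eIF3 genes rho was 0.78 in replicate 2 and -0.09 in replicate 1. The members were not alone in this: over 12905 genes rho was 0.54 in replicate 2 and -0.09 in replicate 1. For isotype replicate 2 minus replicate 1 it was -0.38 over these genes. Among all tested genes of up to 1500 bases, 2406 of 2994 were below the isotype mean in replicate 2, with a median of -0.39. Among those longer than 3000 bases, 4217 of 5622 were above it, with a median of 0.25. With each library's length trend removed, 31 of 71 members had a lower mean instead of 43 and the median was 0.03.

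**Figure D5:**
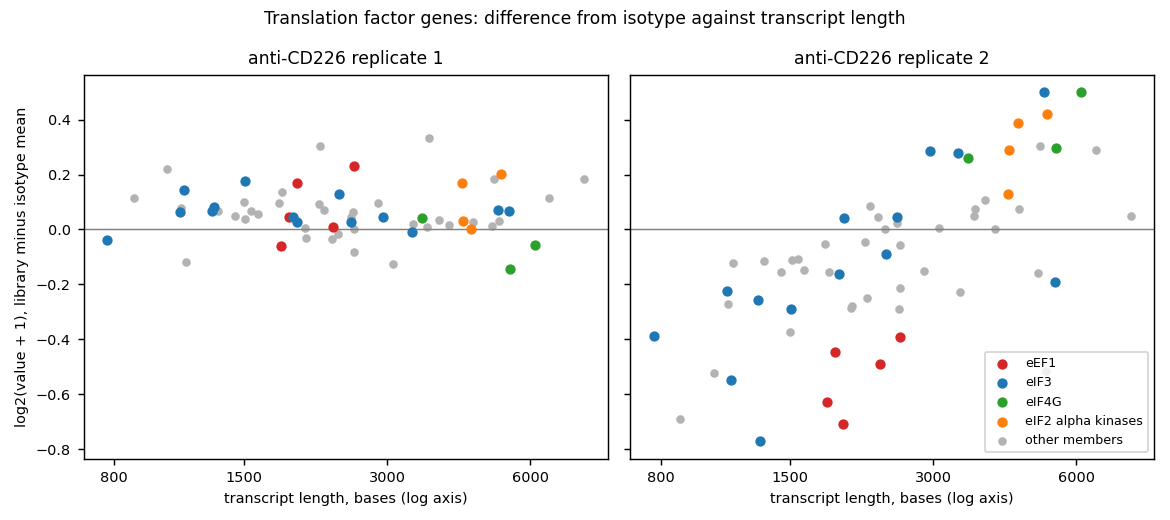
Difference from the isotype mean on the log2(value + 1) scale against transcript length (log axis) for the 62 tested factor genes in anti-CD226 replicate 1 (left) and replicate 2 (right). In replicate 2 the 12 transcripts of up to 1500 bases lie below 0, as do the eEF1 genes of middle length, and the long eIF4G and kinase genes lie above it (rho 0.66), while rho was -0.12 in replicate 1.

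Around the factors, 0 genes of any of 9 lists passed the test over all genes in limma. The lists hold partners and regulators, except for that of factor mRNAs of the terminal oligopyrimidine class. Its 9 genes are translation factor genes already counted above. An unadjusted p under 0.05 was seen for 3 of the 84 tested genes of all lists (3.57%), those 9 included. The 3 were Larp1, Paip2b and Atf5, and the share among all genes was 2.37%. In the list of cap and mTORC1 control, 11 of 17 tested genes had higher means, with a median of 0.08. Its median against the isotype mean was -0.02 in replicate 1, with 10 of 17 below it, and 0.07 in replicate 2. Larp1, which holds mRNAs with a terminal oligopyrimidine start under mTORC1 control, had 992 and 1573 under isotype and 2897 and 1957 under anti-CD226. Both anti-CD226 libraries were above both isotype libraries, and limma gave 0.93 (SE 0.27, 95% interval 0.30 to 1.56) with an adjusted p of 0.982. The list of factor mRNAs of the terminal oligopyrimidine class itself had 7 of 9 lower, with a median of -0.20. Against the isotype mean its median was 0.04 in replicate 1, with 7 of 9 above it, and -0.45 in replicate 2, so the lower median rests on replicate 2. All 5 genes of the poly(A) binding list had lower means, with a median of -0.21, which rests on replicate 2 (-0.40 against the isotype mean, and -0.02 in replicate 1). Paip2b, an inhibitor of poly(A) binding protein, had 359 and 346 under isotype and 255 and 217 under anti-CD226 and did not overlap, at -0.58 (SE 0.19, 95% interval -1.03 to -0.13). Pabpc1, the main poly(A) binding protein and a partner of eIF4G, had 5245 and 5662 under isotype and 5578 and 4563 under anti-CD226 at -0.11 (SE 0.17).

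For the control of eIF2 phosphorylation and its targets, 7 of 12 genes were higher and 5 lower, with a median of 0.02. Atf5, a transcription factor whose mRNA is translated when eIF2 is phosphorylated, had 27.6 and 31.7 under isotype and 9.27 and 13.2 under anti-CD226. It was low in both anti-CD226 libraries, at -1.34 (SE 0.46, 95% interval -2.41 to -0.27), on few reads. Impact, an inhibitor of GCN2, had 217 and 206 under isotype and 239 and 305 under anti-CD226 and did not overlap, at 0.35 (SE 0.21, 95% interval -0.13 to 0.84), while Asns, the asparagine synthetase induced by this pathway, had 4516.5 and 4558 under isotype and 4615.5 and 4820 under anti-CD226 at 0.06 (SE 0.15).

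Of the 9 termination and recycling genes 7 were lower, with a median of -0.11. Gspt2, a relative of the release factor eRF3, had 37.6 and 33.2 under isotype and 24.7 and 24.2 under anti-CD226 without overlap, at -0.51 (SE 0.36). Pelo, which rescues stalled ribosomes, had 113 and 129 under isotype and 115 and 77.1 under anti-CD226 at -0.36 (SE 0.27). Abce1, the ATPase that splits ribosomes, was not among the 7 and had 3832 and 3464.5 under isotype and 3780 and 4362 under anti-CD226 at 0.16 (SE 0.17). The 3 helicase and scanning genes were all higher, with a median of 0.17, led by Dhx29 with 980.2 and 786 under isotype and 909 and 1288 under anti-CD226 at 0.30 (SE 0.22). Of 9 genes for hypusine and diphthamide, the modifications of eIF5A and eEF2, 6 were lower with a median of -0.03. Here too the replicates differed, with medians against the isotype mean of 0.09 in anti-CD226 replicate 1 and -0.20 in replicate 2. Mitochondrial translation factors split 5 to 5 (median -0.06), and in the multisynthetase complex 7 of 10 were higher (median 0.01).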

How the data were processed

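Messenger RNA of 4 libraries was profiled, 2 of ILC2s with isotype antibody and 2 with anti-CD226. The values are the normalised signal that the authors deposited for each gene. The submitters' processing notes list Partek 10.0, STAR 2.7.8, DESeq2 without a version, and build mm10. How reads were counted, with which annotation and strand setting, is not given in the sources used here, so a gene and an overlapping or near-identical gene cannot be told apart. Of the low values, 73.5% to 75.1% per library were whole multiples of 1 step (tolerance 0.02 of a step), too few for a count model, and depth was estimated as the total divided by the step. Amplified reads are not independent molecules. In the table, 186 columns were checked singly and the others were assumed to be alike.

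Genes with a mean of 10 or more (13010) were tested with limma 3.58.1 in R 4.3.3 on log2(value + 1), with a mean-variance trend, no replicate term, two-sided tests and Benjamini-Hochberg adjustment over all genes tested. On this scale the change of genes with few reads is understated. The fit had 2 residual and 5.81 prior degrees of freedom, and its steps were tested on simulated data. Transcript lengths and sequences come from GENCODE M21 (GRCm38), with a length for 98.8% of genes and for 74 of 75 members. Named are, in each complex, the 2 genes of highest mean and the 2 of smallest unadjusted p, 13 fixed genes, and of each list the 2 of smallest p and the 1 of highest mean, where they add to the description. The members, complexes and lists were chosen with earlier results of these data known. Alternatives covered the pseudocount, the filter, 4 scalings, the length trend, the variance prior, the replicate number as a block, and fits without each library.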

Additional observations from a re-analysis of the deposited data

How the results depend on the processing

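No translation factor gene passed an adjusted p of 0.05 under any alternative except without anti-CD226 replicate 1. Over the fits that leave out 1 library each, the genes called ranged from 12 to 1633 of all genes and from 0 to 8 among the members, members with a lower mean from 15 to 48, and the difference in share of signal from -0.117 to 0.006 percentage points. In the same fits the medians ranged from -0.213 to 0.067 for eIF1 and eIF1A, -0.125 to 0.020 for eIF2, -0.147 to 0.006 for eIF2B, 0.076 to 0.338 for the kinases, -0.177 to 0.065 for eIF3, -0.022 to 0.036 for eIF4A, eIF4B and eIF4H, -0.024 to 0.099 for eIF5, eIF5B and eIF6, -0.489 to 0.045 for eEF1, -0.006 to 0.146 for eEF2 and its kinase, -0.076 to 0.102 for eIF4E, -0.058 to 0.296 for eIF4G, 0.023 to 0.169 for eIF5A, -0.25 to 0.078 for the methyltransferases and -0.307 to 0.037 for the copies. The cause was not tested.

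With the replicate number as a block, 20 genes and 0 members were called. Whether the numbers pair the samples is not known. The deviations of same-numbered libraries correlated at -0.241 over 13010 genes. With 2 libraries per group the crossed value is the same with its sign turned (0.241), and any trend across a whole library can set that sign. The correlation therefore cannot show or exclude pairing. The crossed pairing, added after seeing the data, called 61 genes and 0 members.

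Removing each library's length trend moved the medians of eIF5, eIF5B and eIF6 to -0.076, of eEF2 and its kinase to -0.035, of eIF4G from 0.150 to 0.055 and of eIF1 and eIF1A from -0.148 to -0.048. It turned the sign of 12 named genes: Eif1 (0.098), Eif2s3x (-0.038), Eif4b (-0.008), Eif4h (0.008), Eif4e2 (0.062), Eif4g1 (-0.071), Eif5b (-0.076), Eif5 (-0.082), Eif5a (0.056), Eef1akmt4 (0.026), Eef1akmt2 (0.054) and Eif4a-ps4 (0.067). Equal upper quartiles turned Eif4a1 (-0.002) and Eif5 (-0.015), TMM turned Eif5 (-0.008) and quantile normalization turned Eif5 (-0.010). The cause was not tested.

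Leaving out 1 library in turn changed the sign of 27 of 45 named members, with their lowest and highest differences: Eif1ax -0.515 to 0.031, Eif1 -0.131 to 0.084, Eif1a -0.150 to 0.096, Eif2s2 -0.290 to 0.062, Eif2s1 -0.227 to 0.020, Eif2b1 -0.285 to 0.006, Eif2b5 -0.108 to 0.054, Eif3h -0.771 to 0.082, Eif3c -0.011 to 0.279, Eif4a2 -0.006 to 0.161, Eif4a1 -0.089 to 0.132, Eif4h -0.022 to 0.007, Eif4e -0.160 to 0.014, Eif4e2 -0.154 to 0.136, Eif4g3 -0.058 to 0.499, Eif4g1 -0.144 to 0.296, Eif6 -0.374 to 0.099, Eif5 -0.024 to 0.041, Eif5a -0.155 to 0.050, Eef1d -0.489 to 0.009, Eef1g -0.447 to 0.045, Eef2 -0.127 to 0.003, Eef1akmt1 -0.691 to 0.114, Eef1akmt4 -0.247 to 0.006, Eef1akmt2 -0.270 to 0.078, Eif4a-ps4 -0.148 to 0.014 and Eef1a1-ps1 -0.447 to 0.097. The other 18 kept their sign but could move widely, among them Eef1a1 (-0.628 to -0.059), Eif2ak3 (0.003 to 0.386), Eif2ak4 (0.051 to 0.570), Eif2ak1 (0.032 to 0.291), Eif2b4 (-0.278 to -0.032), Eif4g2 (0.011 to 0.289), Eif3a (0.069 to 0.501), Eif3b (0.045 to 0.284) and Eif5a2 (0.053 to 0.435). Over all alternatives, 663 values of named genes kept their direction and their side of the threshold, 51 turned in direction and 6 passed the threshold, all 6 without anti-CD226 replicate 1. Of 294 summary values, 275 were scored as kept. Counts had to stay within 1.5 times and medians within 1 SD, while the share of signal had only to keep its sign, whatever its size. Another 18 counts or medians moved further, and the share turned its sign in 1 alternative. Sign was not scored for medians, and several crossed 0. The median of all members went from -0.045 to 0.027 with the length trend removed and to 0.047 without anti-CD226 replicate 2. Members with few reads have wide errors, such as Eif1-ps2 (SE 0.57) and Eif3s6-ps2 (SE 0.53).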
